A study of Mus musculus with 11 samples.

Results

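The vascular endothelial growth factor (VEGF) family of the mouse left ventricle was followed through its 5 ligand genes (Vegfa, Vegfb, Vegfc, Vegfd and Pgf), its 3 receptor tyrosine kinase genes (Flt1, Kdr and Flt4) and the neuropilin genes Nrp1 and Nrp2. These 10 genes were matched by symbol to the Ensembl identifiers of the 25006 genes counted, and all 10 passed the filter on low counts that left 14779 genes for testing. The mRNA libraries came from 11 mice, 1 library per mouse. Control mice carried the genotype Vegfc fl/fl, and myeloid Vegfc-deficient mice carried Vegfc fl/fl ; LysMCre, in which a Cre recombinase made from the Lyz2 locus acts in macrophages, neutrophils and other myeloid cells. There were 2 naive control, 3 naive Vegfc-deficient, 3 infarcted control and 3 infarcted Vegfc-deficient left ventricles. Myocardial infarction (MI) was made by permanent ligation of the left coronary artery, and the infarcted tissue was taken 9 days later. Naive mice supplied left ventricle of matching mass and position. The labels' protocol and the study's methods name LysMCre mice as the controls, whereas the genotype field gives Vegfc fl/fl without Cre. Ages were not given in the sources used here.

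VEGF ligands are secreted dimers that bind receptor tyrosine kinases on endothelial cells. VEGF-A is induced by low oxygen and drives the growth and leakiness of blood vessels through VEGFR2, the product of Kdr, while VEGFR1, the product of Flt1, binds VEGF-A, VEGF-B and placental growth factor and serves largely as a trap for VEGF-A. VEGF-C and VEGF-D, once cut by proteases, activate VEGFR3, the product of Flt4, and lymphatic vessels depend on this arm. The neuropilins are co-receptors without a kinase of their own that bind both VEGF ligands and class 3 semaphorins. In the heart, VEGF-B is abundant in cardiomyocytes.

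The stretches below show the promoters of the genes with the clearest changes after MI: Vegfa, Vegfb, Flt1 and Kdr, which fell together, and Vegfd, which rose. They are RefSeq sequences of GRCm38.p6, read 5′ to 3′ on the strand of each gene and ending at the last base before the first exon or the RefSeq start. Capitals mark ACGTG or GCGTG, the core letters of the hypoxia response element, or their reverse complements. The Vegfa stretch is chr17:46032378-46032627 (minus strand), that of Vegfb chr19:6987652-6987901 (minus), that of Flt1 chr5:147726012-147726261 (minus), that of Kdr chr5:75978459-75978705 (minus) and that of Vegfd chrX:164373272-164373377 (plus).
Vegfa: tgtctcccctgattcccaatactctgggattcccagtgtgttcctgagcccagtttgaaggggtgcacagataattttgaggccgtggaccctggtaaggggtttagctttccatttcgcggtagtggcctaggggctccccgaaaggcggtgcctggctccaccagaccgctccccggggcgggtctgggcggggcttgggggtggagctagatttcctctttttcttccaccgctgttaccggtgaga
Vegfb: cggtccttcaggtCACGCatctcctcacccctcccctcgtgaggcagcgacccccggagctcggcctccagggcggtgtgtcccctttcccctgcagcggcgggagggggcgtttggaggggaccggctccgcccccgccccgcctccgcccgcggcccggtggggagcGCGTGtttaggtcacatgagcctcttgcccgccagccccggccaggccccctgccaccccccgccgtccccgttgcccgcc
Flt1: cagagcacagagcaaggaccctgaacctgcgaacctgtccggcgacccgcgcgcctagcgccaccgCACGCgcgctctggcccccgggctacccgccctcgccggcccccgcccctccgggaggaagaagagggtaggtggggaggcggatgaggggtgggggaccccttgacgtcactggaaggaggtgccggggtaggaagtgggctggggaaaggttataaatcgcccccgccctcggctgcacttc
Kdr: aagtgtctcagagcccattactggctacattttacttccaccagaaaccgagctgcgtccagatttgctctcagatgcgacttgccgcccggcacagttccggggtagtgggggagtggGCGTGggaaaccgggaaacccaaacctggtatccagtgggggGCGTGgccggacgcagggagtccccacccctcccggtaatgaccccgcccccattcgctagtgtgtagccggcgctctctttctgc
Vegfd: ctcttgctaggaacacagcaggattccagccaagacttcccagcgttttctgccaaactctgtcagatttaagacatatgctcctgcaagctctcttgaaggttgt
The Vegfb and Kdr stretches each held 2 matches and the Flt1 stretch 1, and no match lay in the Vegfa and Vegfd stretches. The stretches are at most 250 bases long, and that of Vegfd is 106. Bases further upstream were not searched, so the lack of a match does not mean that a gene has no hypoxia response element. A second RefSeq window of Vegfa, chr17:46025114-46025413, which is not shown, held 2 matches. Over the RefSeq windows from 250 bases before to 50 bases after the start, 7 of the 12 windows of the family held a match, against 43.8% of 32851 mouse promoters. The GC box GGGCGG, searched on both strands, was present in 10 of the 12 windows and in 35.7% of all promoters, and the Vegfd window lacked it. The letters TATAAA lay in 2 windows, those of Flt1 and Vegfd, against 13.6% of all promoters. In Vegfd they did not lie within the stretch shown.

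Depth and sample facts bear on every value of the family. Total counts were 10824989 to 14585642 in the naive libraries and 14580756 to 26782728 in the MI libraries, so that 3 counts corresponded to 0.101 to 0.363 counts per 1000000 counts of the library (CPM), a floor for counting error only. Counts of the family ran from 31 for Vegfd to 5824 for Vegfb in a single library. All 6 MI libraries had 188 to 403 CPM of Xist and at most 1.84 CPM of 4 Y-linked genes together, whereas all 5 naive libraries had 152 to 195 CPM of the latter, so sex and MI cannot be told apart, also for Vegfd, which lies on the X chromosome. The genotype label of M149, naive Vegfc-deficient, is in doubt. Lyz2 stood at 4565 CPM in it, above the 2121 and 2282 CPM of the naive controls. The same group's M34 and M150 had 245 and 72.5 CPM. Lyz2 is the locus that carries the Cre. After MI it stood at 4538 to 5380 CPM in control and at 1392, 203 and 12.4 CPM in Vegfc-deficient mice. Lyz2 is also a macrophage gene, and 6 of 8 alveolar macrophage genes were likewise highest in M149 and lowest in M34 and M150 among the naive libraries. Whether the genotype or the macrophage content sets the Lyz2 level of M149 was not tested. Without M149, 8 of the 10 genes kept their call between infarcted and naive Vegfc-deficient hearts, with log2 fold changes of -2.79 for Vegfb, -1.31 for Vegfa, -0.78 for Pgf, -1.21 for Flt1, -1.32 for Kdr, 2.90 for Vegfd, 1.24 for Flt4 and 1.15 for Nrp2, Nrp1 gained one, and Vegfc stayed without one. The defining genes of cardiomyocytes were present at 64119 to 91038 CPM in sum in naive ventricle. Nothing in the labels says more of the replicates than that each is a mouse, so p-values measure the spread between these mice.

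In naive ventricle the family was dominated by Vegfb. Levels of different genes were compared as CPM per kilobase of exon, since longer transcripts collect more reads. The length was that of all annotated exons of a gene merged, from 1.6 kb for Vegfb to 13.5 kb for Flt1. It can exceed the length of the transcripts present, so small differences between genes do not establish their order. Vegfb had a median of 295 CPM per kb over the 5 naive libraries, and Vegfa, the next gene, had one of 27.6. The order then ran Kdr at 23.8, Pgf at 13.1, Vegfc at 12.5, Nrp1 at 10.6, Flt1 at 10.6, Nrp2 at 5.36, Vegfd at 1.81 and Flt4 at 1.52 CPM per kb. The library ranges of Pgf, Vegfc, Nrp1 and Flt1 overlapped from one neighbor in the order to the next, as did those of Vegfd and Flt4, so neither group has an order beyond its spread.

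After MI the order of the levels was compressed and partly rearranged. Vegfb still led, at a median of 44.6 CPM per kb over the 6 MI libraries, and its range was separate from that of the next gene. From the second place down, each gene's range overlapped that of the gene ranked after it, so neighboring places are not separated by more than the spread. Places further apart could be separate by this measure. The lowest MI value of Vegfd, 10.9 CPM per kb, exceeded the highest of Nrp1 (10.3), Pgf (7.86), Flt1 (5.83) and Flt4 (5.34). The margin over Nrp1 was small, and another choice of exon length could reverse it. By median, Vegfd stood ninth before and second after MI, at 16.5 CPM per kb. It was followed by Vegfc at 10.4, Vegfa at 9.70, Nrp2 at 8.91, Nrp1 at 8.58, Kdr at 7.24, Pgf at 5.67, Flt1 at 4.36 and Flt4 at 3.35 CPM per kb. Of the summed level of the 5 ligands per kb, Vegfb made up 82.1% to 87.6% in the naive libraries and 36.9% to 63.0% in the MI libraries. Vegfd made up 0.333% to 0.683% before MI and 11.998% to 27.7% after MI. Vegfc made up 2.96% to 4.13% before and 9.85% to 16.9% after, although its own median level was 12.5 CPM per kb before and 10.4 after, since the summed level it is divided by is mostly Vegfb, which fell. Among the 3 receptor tyrosine kinases, Flt4 rose from 4.12% to 5.56% of their summed level to 16.4% to 27.7%. Its own median was 1.52 CPM per kb before and 3.35 after. The medians of Kdr (23.8 to 7.24) and Flt1 (10.6 to 4.36), which make up most of the summed level, fell.

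**Figure D1:**
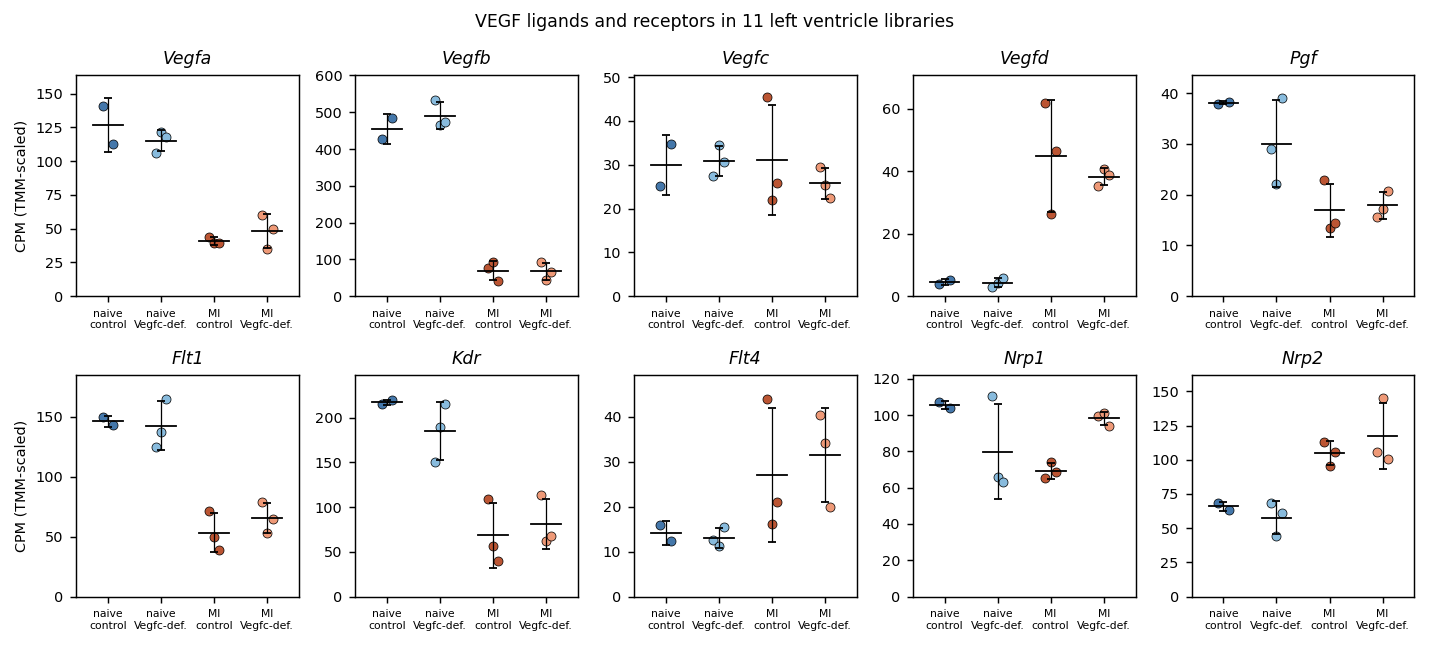
CPM (TMM-scaled) of each of the 10 genes in the 11 libraries, each point 1 mouse, with the group mean as a line and the SD as a bar. The MI libraries lie below all naive libraries for Vegfa, Vegfb, Flt1 and Kdr and above them for Vegfd, Flt4 and Nrp2.

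The first comparison asked how the family differed between infarcted and naive ventricle within each genotype. In control mice 2 of the 10 genes rose (Vegfd and Nrp2) and 6 fell (Vegfa, Vegfb, Pgf, Flt1, Kdr and Nrp1), where 26.3% of all genes tested rose and 24.1% fell. In Vegfc-deficient mice 3 rose (Vegfd, Flt4 and Nrp2) and 5 fell (Vegfa, Vegfb, Pgf, Flt1 and Kdr), where 30% of all genes rose and 27.7% fell. The median log2 fold change of the 10 genes was -0.89 in control and -0.51 in Vegfc-deficient mice, and that of all genes was 0.13 and 0.10. By library, 4 genes had all 6 MI values below all 5 naive values, as 24.2% of all genes did, and 3 had all MI values above, as 24.5% did. Scaling to total counts instead of TMM raised the log2 fold changes of all genes by a median of 0.45 in control and 0.50 in Vegfc-deficient mice. Relative to the median of all genes the values of the family were nearly the same under both scalings.

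Vegfb (ENSMUSG00000024962, chr19:6982473-6987651, minus strand), a ligand gene of VEGFR1, showed the largest decrease of the family. It stood at 426 CPM in naive control M44 and 483 CPM in M45, while MI control M38, M006 and M40 had 92.0, 76.2 and 41.3 CPM. In Vegfc-deficient mice it was at 474, 465 and 533 CPM in naive M34, M150 and M149 and at 92.0, 67.0 and 45.1 CPM in MI M35, M913 and M900. Every MI library lay far below every naive library. The log2 fold change was -2.70 (standard error 0.34) in control mice and -2.85 (standard error 0.32) in Vegfc-deficient mice, with adjusted p-values of 3.32e-04 and 9.26e-05. These and all later adjusted p-values for single genes came from the quasi-likelihood test of edgeR, corrected by Benjamini-Hochberg for every gene tested.

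Vegfa (ENSMUSG00000023951, chr17:46016993-46032369, minus strand), the gene of the main angiogenic ligand, fell less. Its level was 141 and 113 CPM in naive control M44 and M45, against 39.1, 43.98 and 39.1 CPM in MI control M38, M006 and M40. It was 118, 121 and 106 CPM in naive Vegfc-deficient M34, M150 and M149 and 60.4, 49.7 and 35.3 CPM in MI M35, M913 and M900. The MI groups overlapped each other and were separate from both naive groups. The log2 fold change was -1.64 (standard error 0.20, adjusted p = 2.94e-04 by edgeR) in control and -1.25 (standard error 0.18, adjusted p = 3.19e-04 by edgeR) in Vegfc-deficient mice. The log2 ratio of Vegfa to Vegfb rose from between -2.33 and -1.60 in the naive libraries to between -1.23 and -0.08 in the MI libraries. The difference averaged over the genotypes was 1.39 (exact permutation test within genotype, two-sided, p = 0.01, adjusted p = 0.0125 over 5 ratios; 0.005 is the smallest p that 200 assignments allow).

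Pgf (ENSMUSG00000004791, chr12:85166635-85177790, minus strand), the gene of placental growth factor, which like VEGF-B binds VEGFR1, also fell. It was at 37.9 and 38.3 CPM in naive control ventricle and at 13.5, 22.8 and 14.4 CPM in MI control M38, M006 and M40. In Vegfc-deficient mice it was at 39.1, 22.1 and 28.9 CPM in naive M34, M150 and M149 and at 15.7, 20.7 and 17.2 CPM in MI M35, M913 and M900. The control groups were separate, while naive Vegfc-deficient M150 lay just below MI control M006. This gave a log2 fold change of -1.18 (standard error 0.27, adjusted p = 0.00474 by edgeR) in control and -0.75 (standard error 0.24, adjusted p = 0.0224 by edgeR) in Vegfc-deficient mice. The latter call was lost without M34 (-0.51, adjusted p = 0.102 by edgeR) and without M35 or M900. With scaling to total counts both calls were lost, at -0.73 (adjusted p = 0.0514 by edgeR) in control and -0.26 (adjusted p = 0.394 by edgeR) in Vegfc-deficient mice.

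Alongside these 3 falling ligands, the summed level of 8 cardiomyocyte genes dropped from 64119 to 91038 CPM in the naive libraries to 2403 to 23939 CPM in the MI libraries, with 8 of 8 genes called lower in both genotypes. The part of this shift in the decrease of the ligands was not tested. In whole tissue, fewer cells of a type and less RNA per cell cannot be told apart.

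Vegfd (ENSMUSG00000031380, chrX:164373378-164402650, plus strand), the gene of a VEGFR3 ligand known from fibroblasts, showed the largest increase of the family. Its values were 3.92 and 5.16 CPM in naive control M44 and M45, from counts that ran from 31 to 71 over the 5 naive libraries. They were 26.3, 61.9 and 46.5 CPM in MI control M38, M006 and M40. In Vegfc-deficient mice they were 5.78, 4.36 and 3.04 CPM in naive M34, M150 and M149 and 35.3, 38.8 and 40.8 CPM in MI M35, M913 and M900. All MI libraries exceeded all naive libraries, with a wide spread among the MI controls and a narrow one among the MI Vegfc-deficient hearts. This corresponded to a log2 fold change of 3.30 (standard error 0.38, adjusted p = 2.45e-04 by edgeR) in control and 3.11 (standard error 0.33, adjusted p = 6.49e-05 by edgeR) in Vegfc-deficient mice. Over the same libraries the sum of 8 fibroblast genes went from 4828 to 6730 CPM to 29965 to 47562 CPM, with 6 of 8 genes called higher in control and 7 of 8 in Vegfc-deficient mice. Its part in the increase of Vegfd was not tested.

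Vegfc (ENSMUSG00000031520, chr8:54077606-54187096, plus strand), the lymphangiogenic ligand gene that is floxed in these mice, did not pass the test in either genotype. It was at 25.1 and 34.7 CPM in naive control M44 and M45, and MI control M38, M006 and M40 had 21.9, 45.5 and 25.8 CPM. In Vegfc-deficient mice, naive M34, M150 and M149 had 30.6, 34.5 and 27.5 CPM and MI M35, M913 and M900 had 29.4, 22.4 and 25.3 CPM. All 4 groups overlapped. Its log2 fold change after MI was 0.05 (standard error 0.29, adjusted p = 0.888 by edgeR) in control and -0.26 (standard error 0.26, adjusted p = 0.400 by edgeR) in Vegfc-deficient mice. The highest value belonged to MI control M006, and without this library the log2 fold change in control mice was -0.33. The direction in control mice also turned without M44 and with DESeq2's size factors or Wald test, and that in Vegfc-deficient mice with scaling to total counts (0.24).

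Both receptors of the blood vascular arm fell. Kdr (ENSMUSG00000062960, chr5:75932827-75978458, minus strand), which encodes VEGFR2, was at 215 and 219 CPM in naive control M44 and M45, whereas MI control M38, M006 and M40 had 56.4, 109 and 39.8 CPM. It was at 216, 189 and 151 CPM in naive Vegfc-deficient M34, M150 and M149 and at 114, 68.2 and 62.5 CPM in MI M35, M913 and M900. Within each MI group 1 library, M006 or M35, stood well above the others, yet all MI values were below all naive values. Its log2 fold change was -1.67 (standard error 0.38, adjusted p = 0.00516 by edgeR) in control and -1.19 (standard error 0.35, adjusted p = 0.0148 by edgeR) in Vegfc-deficient mice. In the latter, the adjusted p was 0.0529 without M913 and 0.0552 without M900 by edgeR, and the call was also lost with scaling to total counts.

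Flt1 (ENSMUSG00000029648, chr5:147561604-147726011, minus strand), which encodes VEGFR1, put the 6 MI libraries in the same order. It was at 149.4 and 143 CPM in naive control and at 50.04, 71.4 and 38.7 CPM in MI control M38, M006 and M40. It was at 165, 137 and 125 CPM in naive Vegfc-deficient M34, M150 and M149 and at 78.7, 65.0 and 52.9 CPM in MI M35, M913 and M900. As for Kdr, M006 and M35 were the highest libraries of their groups. Its log2 fold change was -1.45 (standard error 0.25, adjusted p = 0.00117 by edgeR) in control and -1.12 (standard error 0.23, adjusted p = 0.00198 by edgeR) in Vegfc-deficient mice.

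Flt4 (ENSMUSG00000020357, chr11:49609263-49652739, plus strand), which encodes VEGFR3 of lymphatic endothelium, moved the other way. It stood at 15.97 and 12.3 CPM in naive control M44 and M45, and MI control M38, M006 and M40 had 16.03, 43.98 and 21.02 CPM. It was at 15.4, 11.1 and 12.6 CPM in naive Vegfc-deficient M34, M150 and M149 and at 40.4, 20.0 and 34.2 CPM in MI M35, M913 and M900. The MI libraries were above the naive libraries, M38 by a small margin. The increase passed the test in Vegfc-deficient mice (log2 fold change 1.27, standard error 0.37, adjusted p = 0.0148 by edgeR), a call lost without M150 (adjusted p = 0.0553 by edgeR). In control mice the log2 fold change was 0.93 (standard error 0.42, adjusted p = 0.0908 by edgeR), and 0.38 without M006, while the test was passed without M38 (adjusted p = 0.0409 by edgeR) and with scaling to total counts. The difference between the genotypes in this response was 0.34 (standard error 0.55, adjusted p = 0.891 by edgeR's interaction test).

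**Figure D2:**
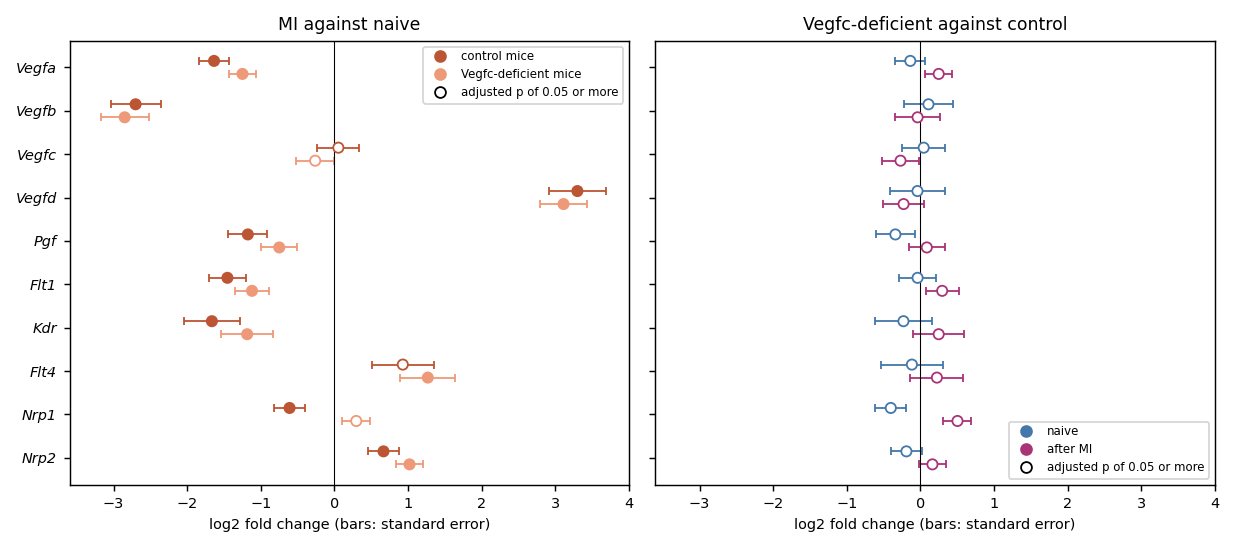
Log2 fold changes of the 10 genes with standard errors as bars, for MI against naive in each genotype (left) and for Vegfc-deficient against control before and after MI (right); filled points have an adjusted p under 0.05 by edgeR. Vegfd lies near 3 and Vegfb near -3 in both genotypes, and every point on the right is open.

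The neuropilins differed from each other. Nrp2 (ENSMUSG00000025969, chr1:62703285-62818695, plus strand), the gene of the co-receptor that partners VEGFR3, rose in both genotypes. Its values were 68.3 and 63.5 CPM in naive control and 95.5, 113 and 105 CPM in MI control M38, M006 and M40. In Vegfc-deficient mice they were 60.8, 44.4 and 68.0 CPM in naive M34, M150 and M149 and 106, 101 and 145 CPM in MI M35, M913 and M900. No MI library overlapped a naive one. The increase on the log2 scale was 0.67 (standard error 0.21, adjusted p = 0.0225 by edgeR) in control and 1.02 (standard error 0.19, adjusted p = 0.00109 by edgeR) in Vegfc-deficient mice. The call in control mice was lost without M44, M45 or M006, with a log2 fold change of 0.61 to 0.72 over the fits that each left out a library.

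Nrp1 (ENSMUSG00000025810, chr8:128358604-128503363, plus strand), the gene of the co-receptor that partners VEGFR2, had the most irregular pattern of the family. It was at 107 and 104 CPM in naive control M44 and M45 and at 74.1, 65.1 and 68.4 CPM in MI control M38, M006 and M40. In Vegfc-deficient mice it was at 63.4, 66.1 and 110 CPM in naive M34, M150 and M149 and at 99.5, 93.8 and 101 CPM in MI M35, M913 and M900. MI control libraries were thus low and MI Vegfc-deficient libraries high, while in the naive state the controls were high and 2 of the 3 Vegfc-deficient libraries low. The log2 fold change after MI was -0.61 (standard error 0.21, adjusted p = 0.0334 by edgeR) in control mice, with the call lost in 4 of the 11 fits that each left out a library, those without M44, M45, M006 or M40. The call was also lost with upper-quartile scaling (-0.51) and with total counts (-0.17). In Vegfc-deficient mice it was 0.30 (standard error 0.19, adjusted p = 0.204 by edgeR), and 0.60 without M149 (adjusted p = 0.00221 by edgeR). The test was also passed there with limma-voom (0.44, adjusted p = 0.0368) and with total counts (0.78, adjusted p = 0.00822 by edgeR).

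The high value of Nrp1 among the naive Vegfc-deficient hearts came from M149, the library whose genotype label is in doubt. M149 had 1679 CPM of Chil3, a gene of alveolar and alternatively activated macrophages, where the naive controls had 580 and 601 CPM and M34 and M150 had 54.2 and 26.0 CPM. Plxna1, which encodes a plexin that signals with neuropilins, followed the same order of naive libraries, at 76.6 CPM in M149, 35.6 and 42.3 CPM in the controls and 15.5 and 9.68 CPM in M34 and M150. Both genes were chosen after their values were seen. Of 8 alveolar macrophage genes, 6 including Chil3 were highest in M149 and lowest in M34 and M150 among the naive libraries. After MI, Chil3 was at 1.51 to 16.9 CPM in all 6 libraries. Other genes of the list moved differently, and Mmp12 stood at 15.4 to 830 CPM before and 31.3 to 591 CPM after MI. Of 8 lung epithelium genes, Sftpa1 and Cldn18 had 0 counts in all libraries, and the summed level was 0.484 to 2.65 CPM in the naive and 1.09 to 2.38 CPM in the MI libraries. Scgb1a1, close to the counting floor, was also highest in M149 and lowest in M34 and M150 among the naive libraries. It was at 2.16 CPM in M149 and 1.34 and 0.453 CPM in controls M44 and M45, which Chil3 put the other way round. It was at 0.163 CPM in M34 and 0 CPM in M150. Ager, the other lung gene that passed the filter, did not have this pattern. After MI, Scgb1a1 was called lower and Ager higher in both genotypes. The sum of the alveolar macrophage genes was 5578 to 8637 CPM before and 1149 to 2264 CPM after MI. Fabp4, the most abundant of them before MI, is also a gene of cardiac endothelium and adipocytes. It was at 5017 to 6111 CPM before and 400 to 2079 CPM after MI. The sum of 8 macrophage genes was 1446 to 2226 CPM before and 1931 to 4525 CPM after MI. Their part in the level of Nrp1 was not tested.

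**Figure D3:**
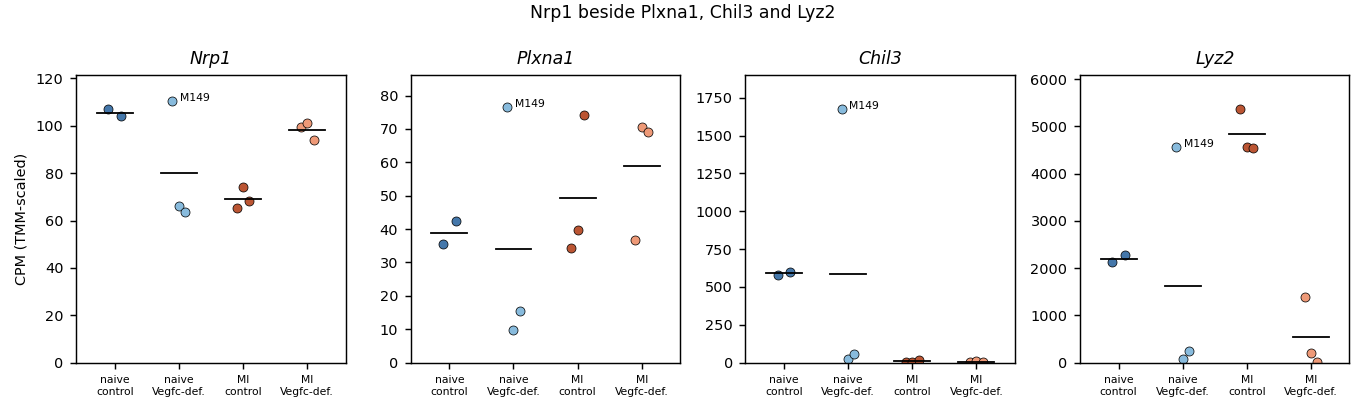
CPM (TMM-scaled) of Nrp1, Plxna1, Chil3 and Lyz2 in each library (points, with the group mean as a line), with the library M149 named. M149 lies with or above the naive controls in all 4 genes, and after MI the Vegfc-deficient libraries lie above the control libraries for Nrp1.

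Kdr and Flt1 are expressed mainly by blood endothelial cells, and both were also set against a mean of 10 blood endothelial genes within each library, so that the scaling cancels. The marker genes themselves changed unevenly: 1 rose and 3 fell in control, 2 rose and 2 fell in Vegfc-deficient mice, and Erg, an endothelial transcription factor, was among the former (1.44 and 1.75 on the log2 scale). Their summed level was 1266 to 1748 CPM in the naive and 728 to 1471 CPM in the MI libraries. The log2 ratio of Kdr to the markers lay between 0.84 and 1.18 in the naive libraries and between -0.64 and 0.35 in the MI libraries. The difference averaged over the genotypes was -1.19 (exact permutation test, two-sided, p = 0.005, adjusted p = 0.00833), with -1.24 in control and -1.13 in Vegfc-deficient mice. For Flt1 the ratio went from between 0.34 and 0.72 to between -0.68 and -0.17, a difference of -0.99 with the same p and adjusted p in the exact test. Kdr and Flt1 thus fell further than the mean of the blood endothelial genes. With summed in place of averaged markers the differences were -0.94 for Kdr and -0.75 for Flt1.

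Nrp1 was set against the same blood endothelial genes. Its log2 ratio spread from -0.92 to 0.47 in the naive and from -0.82 to 0.33 in the MI libraries, and the difference of 0.19 did not pass the exact permutation test (p = 0.525, adjusted p = 0.525). Flt4 was set against 7 lymphatic endothelial genes, Prox1, Lyve1, Pdpn, Mmrn1, Reln, Foxc2 and Tbx1. Ccl21a, the eighth listed gene, had 0 counts in all libraries under both of its identifiers. The list is not pure, since cardiomyocytes contain Prox1, macrophages Lyve1 and fibroblasts Pdpn, and it moved unevenly, with 3 genes called higher and 2 lower in control mice and 4 higher and 2 lower in Vegfc-deficient mice. The 2 called lower were Prox1 (-1.52 in control and -1.33 in Vegfc-deficient mice) and Lyve1 (-1.29 and -1.40). Pdpn, Mmrn1, Foxc2 and Tbx1 had larger log2 fold changes than Flt4 (0.93 and 1.27). They were 1.15 to 2.43 in control and 1.42 to 2.41 in Vegfc-deficient mice, while Reln had smaller ones (0.45 and 0.70). The summed level was 155 to 195 CPM in the naive and 130 to 266 CPM in the MI libraries. The log2 ratio of Flt4 to the list was 0.05 to 0.41 before and 0.41 to 1.07 after MI, a difference of 0.43 (exact permutation test, p = 0.005, adjusted p = 0.00833), and the lowest MI value, 0.414, barely exceeded the highest naive one, 0.412. Without naive control M45 the difference was 0.39 and the call was lost. Fewer assignments are possible in every fit that leaves out a library. The mean of the list includes the falling Prox1 and Lyve1, and a ratio without them was not taken. The difference thus does not show that Flt4 rose beyond lymphatic endothelial genes.

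**Figure D4:**
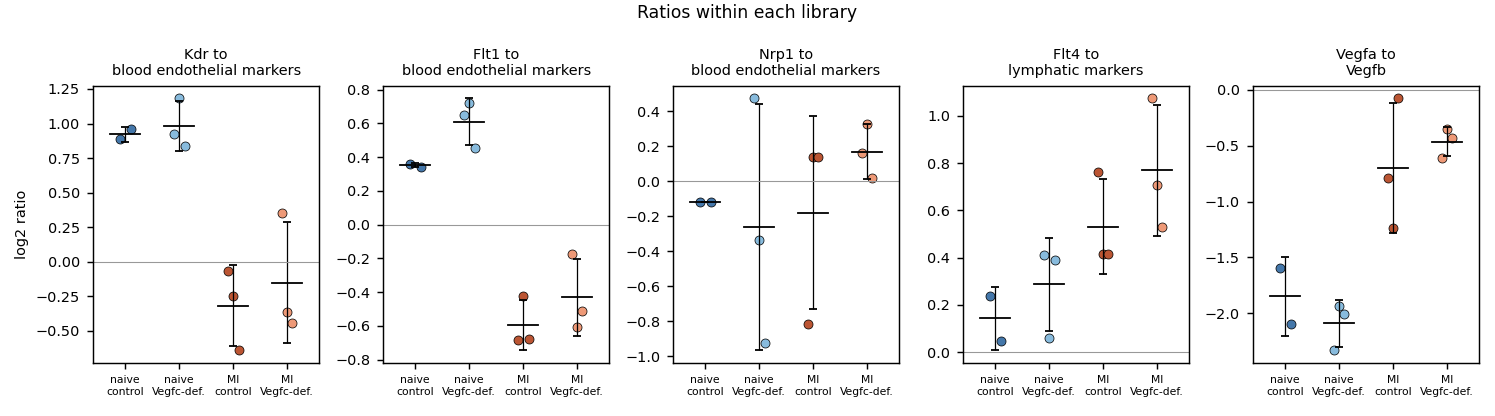
Log2 ratios within each library of Kdr, Flt1 and Nrp1 to the mean of 10 blood endothelial genes, of Flt4 to the mean of 7 lymphatic genes and of Vegfa to Vegfb (points, with the group mean as a line and the SD as a bar). All MI libraries lie below all naive libraries for Kdr and Flt1 and above them for Flt4 and for Vegfa to Vegfb.

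The second comparison asked whether loss of Vegfc in myeloid cells went with a different level of the family. Between infarcted Vegfc-deficient and infarcted control ventricles, 0 of the 10 genes were called by edgeR, where 0% of all genes tested were called, and 1 had an unadjusted p under 0.05. That gene was Nrp1, with a log2 fold change of 0.50 (standard error 0.19, adjusted p = 0.585 by edgeR, 0.422 to 0.826 over the alternatives). DESeq2's Wald test also called 0 of the 10, and 51 of all genes, where 1173 had an unadjusted p under 0.05 by edgeR. All 3 Vegfc-deficient libraries had more Nrp1 than all 3 control libraries, a separation found in 12.1% of all genes and in 1 of the 10. Leaving out each library gave 0.46 to 0.59 for this difference. Flt1 differed by 0.30 (standard error 0.22), Vegfa by 0.25 (standard error 0.18), Kdr by 0.25 (standard error 0.35) and Flt4 by 0.22 (standard error 0.36), each with overlapping groups. Nrp2 differed by 0.16 (standard error 0.18) and Pgf by 0.09 (standard error 0.24). Vegfd differed by -0.23 (standard error 0.28), Vegfc by -0.27 (standard error 0.25) and Vegfb by -0.04 (standard error 0.30). Adjusted p-values for these 9 genes ran from 0.762 to 0.987 by edgeR. Counts of the whole gene in whole tissue do not check the deletion.

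In naive ventricle, 0 of the 10 genes were called between the genotypes, again as 0% of all genes were, and 0 had an unadjusted p under 0.05. DESeq2's Wald test called 0 here too, and 14 of all genes, where 499 had an unadjusted p under 0.05 by edgeR. The largest difference was again in Nrp1, at -0.40 (standard error 0.21), which became -0.71 without M149 (adjusted p = 0.0965 by edgeR). For the interaction, the difference between the genotypes in the response to MI, 0 of the 10 genes were called, where 0% of all genes were, and 1 had an unadjusted p under 0.05. DESeq2 called 0 of the 10 and 55 of all genes, and 1226 genes had an unadjusted p under 0.05 by edgeR. The member was Nrp1 once more, with an interaction of 0.91 (standard error 0.28, adjusted p = 0.543 by edgeR), and 1.21 without M149 (adjusted p = 0.097 by edgeR).

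The wider pathway was described through 7 lists of 82 genes, grouped by role. The counts of each list stand beside the shares of all genes tested, of which 26.3% rose and 24.1% fell in control mice and 30% rose and 27.7% fell in Vegfc-deficient mice. Among 6 genes that process VEGF-C and VEGF-D, 2 rose in control and 3 in Vegfc-deficient mice and none fell. Pcsk5, a proprotein convertase, rose by 1.82 (standard error 0.35, adjusted p = 0.00214 by edgeR) and 2.23 (standard error 0.31, adjusted p = 2.28e-04 by edgeR) on the log2 scale in control and Vegfc-deficient mice. Furin, another convertase, rose by 0.81 and 1.03, with adjusted p-values of 0.0392 and 0.00642 by edgeR. The call of Furin in control mice was lost in 6 of the 11 fits that each left out a library and with DESeq2's size factors (0.75, adjusted p = 0.053 by edgeR). The list's median log2 fold changes were 0.78 and 1.04.

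Class 3 semaphorins compete with VEGF for the neuropilins, and plexins are their signaling partners. Of 12 such genes 4 rose and 1 fell in control mice, and 4 rose and 0 fell in Vegfc-deficient mice, with medians of 0.36 and 0.59. The shares that rose were close to the 26.3% and 30% of all genes. Sema3d rose by 2.79 and 2.62, Plxna3 by 1.92 and 2.23 and Plxna4 by 1.76 and 2.21 on the log2 scale, with adjusted p-values by edgeR of 1.01e-04 to 0.0032. Values of Sema3d ran from 3.12 to 5.05 CPM before and from 18.4 to 35.4 CPM after MI. Among 7 partners of the receptors 2 rose and 1 fell in control mice, and 3 rose and 2 fell in Vegfc-deficient mice. The integrin genes Itgav and Itgb3 rose, by 2.01 and 1.74 in control and by 1.32 and 2.68 in Vegfc-deficient mice. Gpc1, a heparan sulfate proteoglycan that binds VEGF-A, fell by 1.67 and by 1.10 on the log2 scale (the latter not called with scaling to total counts).

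Oxygen sensing controls Vegfa and Flt1. Of 8 genes 2 rose and 3 fell in control mice, and 3 rose and 4 fell in Vegfc-deficient mice, with medians of -0.07 and -0.08, where all genes also moved both ways (26.3% up and 24.1% down in control, 30% up and 27.7% down in Vegfc-deficient mice). Hif1a, the oxygen-regulated transcription factor, rose by 1.15 (standard error 0.17, adjusted p = 6.15e-04 by edgeR) and 1.16 (standard error 0.15, adjusted p = 1.57e-04 by edgeR). Epas1, the gene of HIF-2alpha, which is abundant in endothelium, fell by 1.11 and by 0.74 on the log2 scale, the latter a call lost with scaling to total counts. Egln1, a prolyl hydroxylase that marks HIF for degradation, fell by 2.12 and by 2.02 on the log2 scale, from 480 to 615 CPM in the naive to 79.2 to 176 CPM in the MI libraries. Of 12 targets of HIF 2 rose and 6 fell in control mice, and 3 rose and 6 fell in Vegfc-deficient mice, with medians of -0.40 and -0.44. Pdk1 fell by 1.49 and by 1.61 and Ldha by 0.97 in both genotypes on the log2 scale, whereas Pfkfb3, an activator of glycolysis, rose by 1.19 and 0.93. Pdk1 and Ldha are also abundant in cardiomyocytes.

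Downstream of the receptors, 26 signaling genes were listed, with kinases and adaptors among them. In control mice 4 rose and 6 fell, against 26.3% and 24.1% of all genes, and in Vegfc-deficient mice 6 rose and 6 fell, against 30% and 27.7%, with medians of 0.02 and 0.07. None of these shares was above that of all genes. Src, a kinase that loosens endothelial junctions, rose by 1.99 and 2.44, and Mapkapk2, a kinase of the p38 pathway, fell by 1.20 and by 1.41 on the log2 scale. Of 11 genes that VEGF induces in endothelial cells, 4 rose and 2 fell in control and 6 rose and 0 fell in Vegfc-deficient mice, with medians of 0.21 and 0.57. Plvap, a protein of the diaphragms of leaky capillaries, rose by 1.82 (standard error 0.19, adjusted p = 1.76e-04 by edgeR) and 2.82 (standard error 0.17, adjusted p = 1.12e-05 by edgeR). Egr3, an early response transcription factor, rose by 2.68 and 1.92, and Tfpi2, a protease inhibitor, by 1.26 and 1.45. The level of Egr3 was low, at 0.634 to 1.45 CPM in the naive and 3.21 to 6.62 CPM in the MI libraries. Dll4, a Notch ligand, and Rcan1, an inhibitor of calcineurin, fell in control mice, by 0.89 (adjusted p = 0.0339 by edgeR) and by 0.67 (adjusted p = 0.0350 by edgeR) on the log2 scale, and stood at -0.65 and -0.35 in Vegfc-deficient mice without passing the test. Both were chosen after their values were seen. Between the genotypes, 0 genes of the 7 lists were called by edgeR before or after MI, as 0 of all genes tested were. Of the 82 genes, 1 before and 7 after MI had an unadjusted p under 0.05 by edgeR. Of all 14779 genes, 499 before and 1173 after MI did, so the counts of the lists are not particular to the pathway.

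**Figure D5:**
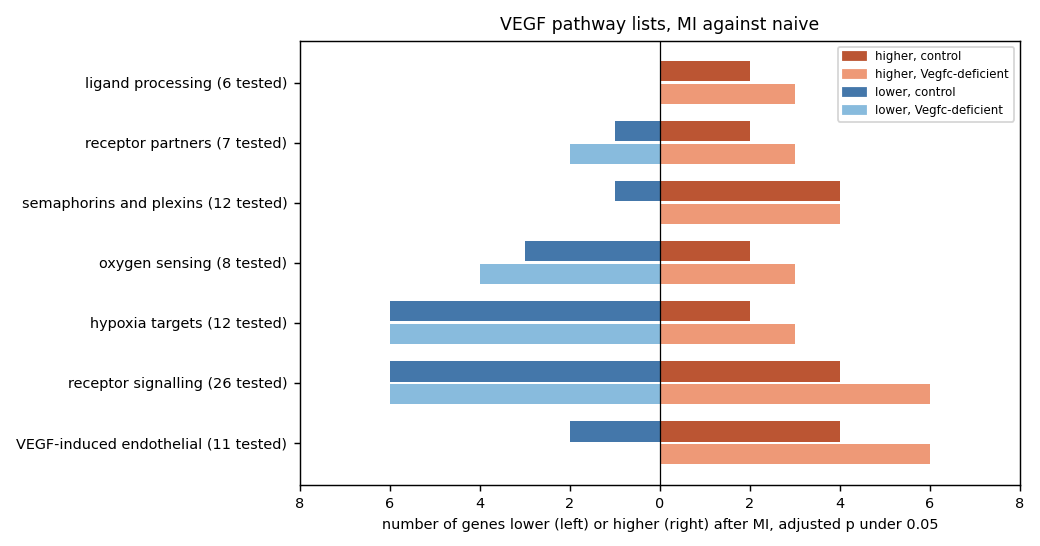
Number of genes in each pathway list with an adjusted p under 0.05 by edgeR that were higher (right) or lower (left) after MI, in control (dark) and Vegfc-deficient (light) mice. Genes of ligand processing were called higher only (2 in control, 3 in Vegfc-deficient mice), and receptor signalling had calls on both sides.

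The genes whose log2 CPM followed each member most closely over the 11 libraries were listed as a description, with Pearson's r. The libraries fall into 5 naive and 6 MI samples, and r takes in that split. Kdr and Flt1 were like each other, at r = 0.983, and both were like Adgrf5, an adhesion receptor of endothelium, at 0.993 and 0.989. The other genes nearest to Kdr and Flt1 were Colgalt2 (0.983), Gsn (0.989) and Kcnk2 (0.989). The nearest genes to Vegfb were Cox17, Sdhc and Smim20, at 0.995 to 0.996, which encode mitochondrial proteins of the respiratory chain or its assembly. Those of Vegfa were Txnrd3, Slc4a3 and Tmem201 (0.991 to 0.994), and those of Vegfd were Pi15, Nrep and Igfbp4 (0.992 to 0.998). Pgf was nearest to Fah, Esam and Shank3 (0.955 to 0.959), of which Esam is an endothelial adhesion gene of the marker list. Flt4 was nearest to Srsf6, Ogt and Zfp318 (0.967 to 0.977), and Nrp2 to Sin3a, Ep400 and Maml1 (0.983 to 0.985). The lowest best values belonged to Nrp1, with Pi4ka, Mybbp1a and Limd1 (0.914 to 0.935), and to Vegfc, with Rab26os, Fam133b and Smtnl2 (0.880 to 0.910), the members without a common direction after MI.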

How the data were processed

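The left ventricle libraries were stranded mRNA libraries, and the authors deposited raw read counts per Ensembl gene, without normalization. The submitters' processing notes name cutadapt 1.13, STAR, HTSeq 0.6.1p1, DESeq2 1.14.1 and the build mm10, while the strand setting and annotation release were not given in the sources used here. A microRNA gene, Mir1903, lies within Nrp1. Of 25006 identifiers, 24991 were matched to GENCODE release M21, which supplied symbols and exon lengths. Total counts ranged from 10824989 to 26782728.

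Counts were filtered with filterByExpr by group, scaled with TMM and modelled together for all 11 libraries, with edgeR 4.0.16 (R 4.3.3) and its quasi-likelihood F-test. P-values were adjusted by Benjamini-Hochberg over 14779 genes, with a threshold of 0.05. CPM used TMM-scaled library sizes, and log2 CPM for ratios and likeness used a prior count of 2. Ratios were tested by an exact permutation test within genotype. Groups came from the sample labels.

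The family and the lists were chosen with earlier results of these data known. Named genes were all 10 members, up to 3 genes per pathway list with the smallest p in control mice among those called in both genotypes, Lyz2, Xist and Y-linked genes as label checks, and the 3 genes most correlated with each member. One of the pathway genes so named is not reported here. Alternatives were DESeq2 1.42.0 (size factors, Wald test), limma 3.58.1 (voom with quality weights), other scalings and filters, fits of the compared groups alone, a threshold of 0.01 and leaving out each library. The edgeR fit was also run on counts simulated with the library sizes of these data.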

Additional observations from a re-analysis of the deposited data

How the results depend on the processing

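The counts of called family genes after MI were within 1.5 times their values under the alternatives run (6 to 9 in control and 6 to 9 in Vegfc-deficient mice over the fits that each left out a library), except that a threshold of 0.01 left 5 in Vegfc-deficient mice. For the genotype comparisons and the interaction they were 0 throughout. For log2 fold changes of the family after MI, 367 of 400 alternative values kept direction and side of the threshold, 23 lost a call, 5 gained one and 5 changed sign, the last for Vegfc alone. For genotype differences and the interaction, 27 of 590 changed sign, and none was called. For the 5 ratios, 58 of 59 kept their side, and that of Flt4 to the lymphatic genes, which lost it without M45, was 0.36 to 0.49 over the libraries left out. No paired analysis was possible because the groups share no replicate numbers. The causes of these changes were not tested, and depth limits Vegfd in naive hearts most (31 to 71 counts). For Vegfc after MI in control mice the log2 fold change was -0.017 with DESeq2's size factors and -0.016 with its Wald test, and in Vegfc-deficient mice it was 0.24 with total counts. In naive hearts the genotype difference was -0.0018 for Vegfc with total counts, and 0.076 for Vegfd and 0.0065 for Flt1 with limma-voom. Over the fits that each left out a library, the log2 fold change of Vegfc after MI in control mice ran from -0.33 to 0.31. Genotype differences after MI ran from -0.32 to 0.25 for Vegfb, -0.43 to 0.11 for Vegfc, -0.47 to 0.077 for Vegfd, -0.028 to 0.36 for Pgf, -0.067 to 0.76 for Kdr and -0.010 to 0.77 for Flt4. Those in naive hearts ran from -0.29 to 0.028 for Vegfa, -0.17 to 0.30 for Vegfc, -0.31 to 0.17 for Vegfd, -0.16 to 0.049 for Flt1 and -0.29 to 0.080 for Flt4. Interactions ran from -0.43 to 0.15 for Vegfb, -0.57 to 0.10 for Vegfc and -0.42 to 0.15 for Vegfd.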
